A study of Mus musculus with 10 samples.

Results

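C1q and locally made complement were examined in mouse tumour-associated macrophages through 8 genes: C1qa, C1qb, C1qc, C3, Cfb, Cfp, C3ar1 and C5ar1. They were taken by gene symbol from the tables of all 10 libraries, and all 8 were present in each table, among 21938 protein-coding genes. All 8 also passed the filter for testing (at least 10 reads in at least 3 libraries), which 11564 genes passed. The macrophages were sorted by flow cytometry from mammary tumours of C57BL/6 mice, which had grown for 5 weeks from PyMT tumour cells placed in 2 glands of each animal. PyMT cells carry the polyoma middle T oncogene.

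The control group (n = 3) joined wild-type mice and wild-type tumour cells. Hosts of the Mertk KO group (n = 4) lacked MerTK, a receptor for dying cells, in macrophages only, and their tumour cells were wild-type. In the Ptdss1 knockdown group (n = 3) the hosts were wild-type and Ptdss1 was knocked down in the tumour cells. Ptdss1 makes phosphatidylserine, the lipid that dying cells show on their surface. The sources used here do not give the Cre driver, the age of the mice, the markers used for sorting or the knockdown construct. The labels do not say whether libraries came from separate mice. The p-values set group differences against the spread between these libraries, which may therefore be partly technical.

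Library totals ran from 10292592 to 25815071 reads. Ptdss1 knockdown replicate 1 stood apart, with 6995 genes at 10 or more reads and 31.5% of the generally detected genes missed. Control replicate 2 missed 13.1%, and the other 8 libraries missed between 0.108% and 8.60%. Results that turn on the first of these libraries are given with and without it. All 10 macrophage markers on the list were detected, and their summed level was 15996 to 22395 RPM (reads scaled to the library total) in control, 16052 to 27094 in Mertk KO and 16313 to 20850 in Ptdss1 knockdown. Lyz2 had the most reads of these markers in every library, so the sums say little about the others. On the log2 scale Cd68 was wholly higher and Cd14 wholly lower in Mertk KO than in control. Of all tested genes, 3% and 2.62% were so. Mrc1 was wholly lower in Ptdss1 knockdown than in control, as were 3.6% of all tested genes. The other markers of the list overlapped control in both groups. Mertk itself had control levels of 9.64, 9.26 and 10.97 on the log2 scale, then 10.63, 9.72, 9.24 and 8.95 in Mertk KO and 7.47 to 10.20 in Ptdss1 knockdown. A value over the whole gene does not separate the deleted part of Mertk from the rest, so these levels do not check the labels.

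C1q is the recognition molecule of the classical complement pathway, built from the products of C1qa, C1qb and C1qc. Unlike most complement proteins, which come mainly from the liver, C1q is made largely by tissue macrophages, and it can coat dying cells and aid their uptake. C3 is the central component that is cleaved to mark surfaces. Factor B (Cfb) provides the protease of the alternative pathway convertase, and properdin (Cfp) stabilises that convertase. C3ar1 and C5ar1 encode the receptors for the small fragments C3a and C5a that attract and activate myeloid cells.

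The 3 C1q genes are neighbours on chromosome 4 of GRCm38, all on the minus strand: C1qb at 136880129 to 136886187, C1qc at 136889804 to 136893065 and C1qa at 136895917 to 136898803. Of the 8 genes, 6 matched the RefSeq promoter windows of GRCm38.p6, which run from 250 bases before the start to 50 after it; C1qa and Cfb did not. The upstream sequences of C1qb and C1qc are shown because C1q was the most abundant of the 8 products and these chains varied least between libraries. Both are on the minus strand and lie upstream of the RefSeq and the GENCODE starts. They are chr4:136886201-136886450 for C1qb and chr4:136893066-136893164 for C1qc, written 5′ to 3′. Capitals mark the core GAGGAA of the myeloid factor PU.1 on either strand and the Maf recognition motif TGCTGA.
C1qb: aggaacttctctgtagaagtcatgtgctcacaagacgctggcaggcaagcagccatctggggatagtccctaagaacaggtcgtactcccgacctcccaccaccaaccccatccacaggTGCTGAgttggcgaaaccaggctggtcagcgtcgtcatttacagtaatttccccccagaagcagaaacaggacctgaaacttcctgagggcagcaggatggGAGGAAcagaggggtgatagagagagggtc
C1qc: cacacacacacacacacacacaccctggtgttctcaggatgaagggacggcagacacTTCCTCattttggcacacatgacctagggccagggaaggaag

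The PU.1 core began 43 bases before the GENCODE start of C1qb and 42 bases before that of C1qc, where it reads on the opposite strand. Counted from the RefSeq starts, these distances were 30 and 193 bases, because the starts of C1qc in the 2 annotations differ by 151 bases. The C1qb window also held 1 Maf motif, 131 bases before the RefSeq start. Searched on both strands, the PU.1 core was in 3 of the 6 windows (C1qb, C1qc and Cfp) and in 28.3% of 32851 mouse windows of the same length. The Maf motif was in 4 of 6 (C1qb, C3, C3ar1 and C5ar1) and in 19.5% of all windows. The AP-1 site TGACTCA was in 1 window (C3ar1; 5.20% of all), CCAAT in 1 (C5ar1; 37.4%), and TATAAA in 2 (C3 and C3ar1; 13.6%). The core of the interferon-response element, TTTC, any 2 bases and TTTC, was in 0 of 6 and in 3.44% of all windows. Such matches are letters in a window and do not show binding.

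The C1q chains were among the most abundant transcripts of these macrophages in every group. In RPKM, reads scaled to transcript length and library total, C1qb averaged 6348, C1qa 4459 and C1qc 3465 over the 10 libraries. Ranked by reads, C1qb stood between place 11 and 16, C1qa between 14 and 25 and C1qc between 15 and 24 of all genes. C1qb lay above C1qa per length in 10 of 10 libraries, and C1qa above C1qc in 9 of 10; the exception was Ptdss1 knockdown replicate 1. The other 5 genes averaged 159 RPKM (Cfp), 130 (Cfb), 118 (C5ar1), 117 (C3ar1) and 101 (C3). In every library the lowest C1q chain exceeded the highest of these 5, by 3.65-fold to 42.3-fold per length. Among the 5, the order changed from library to library: Cfp was highest in 3 libraries, C3, C5ar1 and Cfb in 2 each, and C3ar1 in 1.

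C1qa, the A chain, had log2 levels of 16.31, 16.48 and 15.88 in control, 15.90, 15.87, 16.25 and 16.76 in Mertk KO, and 15.55, 16.07 and 16.43 in Ptdss1 knockdown. The highest and the lowest value came from a Mertk KO and a Ptdss1 knockdown library, and all 3 groups overlapped. These levels are log2 of size-factor-normalised reads plus 1, as deposited. C1qb, the B chain, measured 16.90, 16.93 and 16.61 in control, 16.47, 16.58, 16.71 and 17.18 in Mertk KO, and 16.15, 16.76 and 17.10 in Ptdss1 knockdown. C1qc, the C chain, measured 16.09, 16.30 and 15.93 in control, 15.62, 15.73, 16.07 and 16.57 in Mertk KO, and 15.80, 15.80 and 16.27 in Ptdss1 knockdown. For both, the 3 groups overlapped again, and Mertk KO replicate 4 was the highest library.

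**Figure D1:**
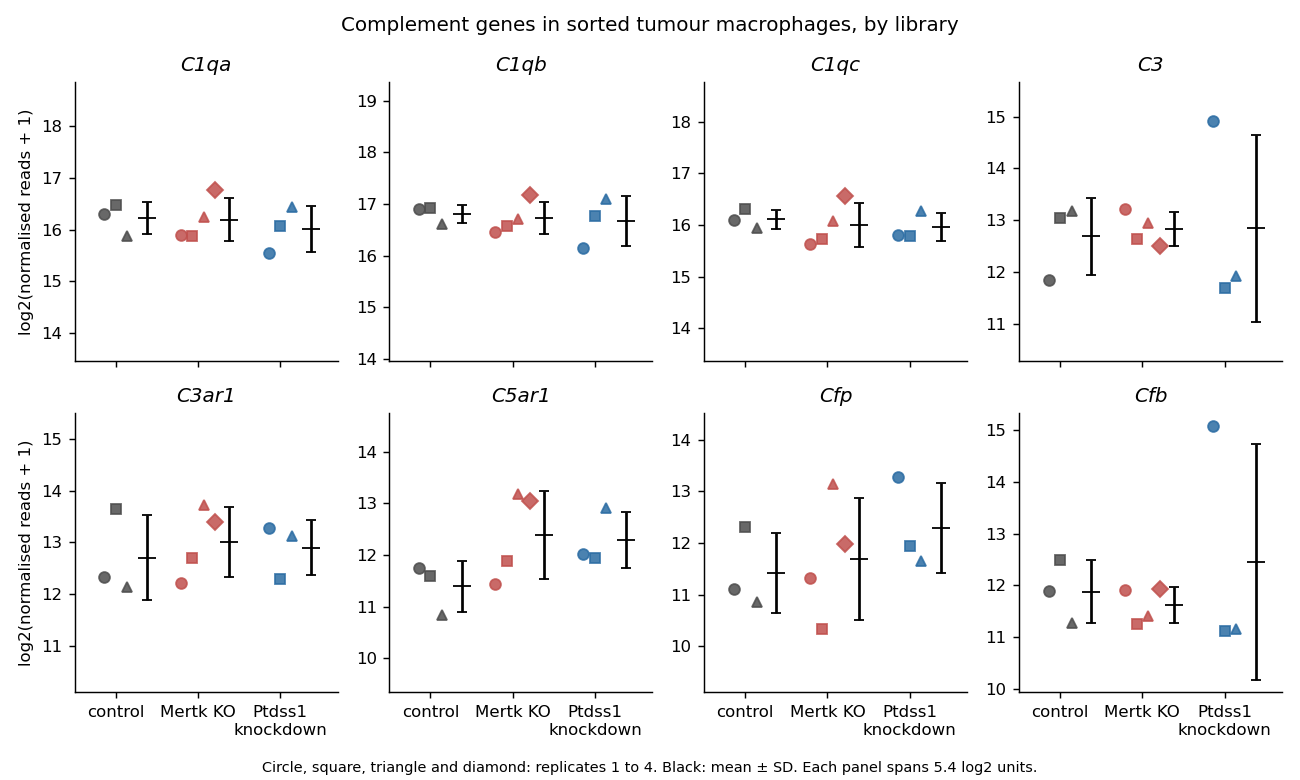
Level of each of the 8 genes as log2(normalised reads + 1) on the vertical axis, by group; points are libraries, black bars the mean ± SD, and every panel covers the same number of log2 units. The C1q chains form narrow bands that overlap between groups, while C3 and Cfb have 1 high point, Ptdss1 knockdown replicate 1, at 14.91 and 15.09.

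No difference between groups in the C1q chains exceeded the spread between libraries. In Mertk KO against control the log2 fold change was -0.03 (SE 0.34) for C1qa, -0.08 (SE 0.32) for C1qb and -0.11 (SE 0.33) for C1qc, and in Ptdss1 knockdown against control -0.21 (SE 0.37), -0.14 (SE 0.34) and -0.15 (SE 0.35). In Mertk KO against Ptdss1 knockdown the values were 0.18, 0.07 and 0.04. The 95% intervals of the 3 chains together reached from -0.80 to 0.69 for Mertk KO against control, from -0.98 to 0.58 for Ptdss1 knockdown against control, and from -0.65 to 0.90 between the 2. The lowest adjusted p of a C1q chain was 0.906 (limma, Benjamini-Hochberg over all genes tested). Without Ptdss1 knockdown replicate 1, the differences from control turned to 0.03 for C1qa and 0.12 for C1qb, still inside these intervals. Since these are bulk samples, fewer cells expressing a gene and less RNA per cell cannot be told apart, here and for the other genes.

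Together the C1q chains took 1.69%, 1.94% and 1.26% of all reads in control, 1.34%, 1.36%, 1.63% and 2.09% in Mertk KO, and 0.874%, 1.58% and 1.95% in Ptdss1 knockdown. The mean was 1.63% ± 0.347 (SD, n = 3), 1.60% ± 0.351 (SD, n = 4) and 1.47% ± 0.545 (SD, n = 3), so the group means differed by less than 1 SD. The lowest share was in Ptdss1 knockdown replicate 1, the library with the fewest detected genes. The division among the chains was steadier than their sum. Per transcript length, C1qa made up 28.6% to 33.0%, C1qb 41.5% to 47.4% and C1qc 22.0% to 29.6% of the C1q signal, and the highest C1qc share came from that same library. The chains share no stretch of transcript longer than 15 bases, against reads of 75 cycles, so reads of 1 chain would not be assigned to another through identical sequence.

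**Figure D2:**
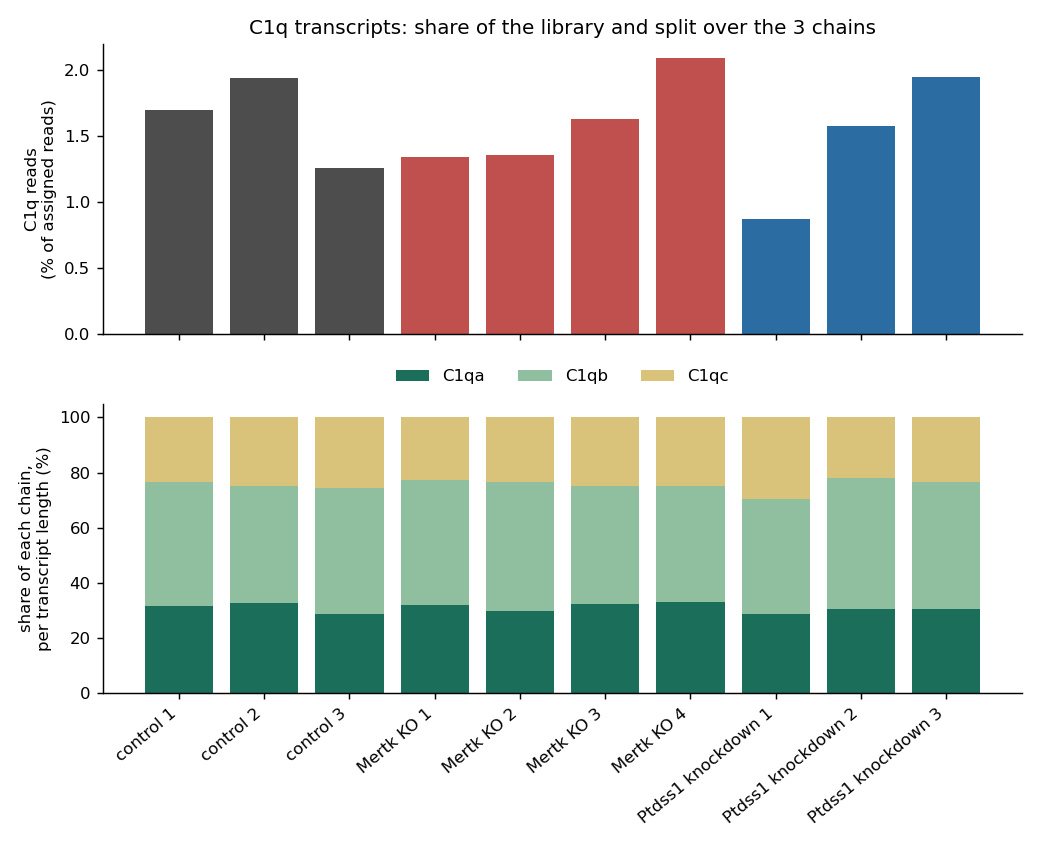
Upper panel: percent of assigned reads that came from the C1q genes, 1 bar per library, coloured by group. Lower panel: how that signal, per transcript length, divided among C1qa, C1qb and C1qc; the split stays near 31.1%, 45.2% and 24.2% (medians) while the total runs from 0.874% to 2.09%.

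Over the 10 libraries the C1q chains varied less than most abundant genes. Their SD was 0.36 (C1qa), 0.31 (C1qb) and 0.30 (C1qc) log2 units. Among the 2404 tested genes with a mean log2 level of at least 10, the median SD was 0.63. Of those genes, 9.44% had a smaller SD than C1qa, 4.62% a smaller one than C1qb and 3.45% a smaller one than C1qc. That set reaches well below the levels of C1q, and among the 35 genes with a mean level of at least 15, the chains included, the median SD was 0.49, and 11, 5 and 3 of them had a smaller SD than C1qa, C1qb and C1qc. For the other 5 genes the SD was 0.62 for C3ar1, 0.76 for C5ar1, 0.94 for C3, 0.95 for Cfp and 1.19 for Cfb. The last of these values and that of C3 rested on Ptdss1 knockdown replicate 1. Without it the SD was 0.47 for Cfb, 0.60 for C3, 0.64 for C3ar1, 0.81 for C5ar1 and 0.84 for Cfp, beside a median of 0.49 for the genes with a mean level of at least 10. Of those genes, 95.3% varied less than Cfb with that library and 45.2% without it. For the C1q chains the SD without it was 0.31, 0.24 and 0.30.

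Across the 10 libraries, C1qa and C1qb correlated with Pearson's r = 0.954, C1qa and C1qc with r = 0.898 and C1qb and C1qc with r = 0.830. The libraries share normalisation and 3 groups, so these are descriptions and carry no test. Among 6047 genes with at least 10 reads in every library, those most like the mean of the C1q chains were Mrpl37 (r = 0.947), Ddost (0.942), Ap3s2 (0.935), Cd81 (0.909) and Pmepa1 (0.903). Mrpl37 encodes a mitochondrial ribosomal protein, Ddost a subunit of the oligosaccharyl transferase of the endoplasmic reticulum, and Cd81 a tetraspanin.

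C3, Cfb and Cfp are the alternative pathway components. On the log2 scale, the highest and the lowest library for C3 and for Cfb both came from the Ptdss1 knockdown group. C3 (chromosome 17, 57203970 to 57228136) had log2 levels of 11.83, 13.05 and 13.17 in control, 13.23, 12.64, 12.95 and 12.50 in Mertk KO, and 14.91, 11.69 and 11.92 in Ptdss1 knockdown. Ptdss1 knockdown replicate 1 was the highest of all libraries and the other 2 of its group lay among the lowest. In reads, C3 had 35563 in that library, 0.152% of its total, and between 3512 and 12646 in the other 9. The log2 fold change was 0.14 (SE 0.61) in Mertk KO and 0.15 (SE 0.66) in Ptdss1 knockdown against control. Without Ptdss1 knockdown replicate 1, the second value turned to -0.88 (SE 0.45, limma adjusted p = 1.00), and Mertk KO against Ptdss1 knockdown moved from -0.01 to 1.02 (SE 0.43, limma adjusted p = 1.00). The direction for C3 in the knockdown group therefore rested on 1 library.

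Cfb (chromosome 17, 34856374 to 34862518) followed the same form. Its log2 levels were 11.88, 12.49 and 11.27 in control, 11.91, 11.26, 11.40 and 11.93 in Mertk KO, and 15.09, 11.11 and 11.14 in Ptdss1 knockdown. On this scale the knockdown group held both the highest library and the 2 lowest. By RPKM the lowest was control replicate 3, at 50.6, beside 53.8 and 52.0 in Ptdss1 knockdown replicates 2 and 3. Cfb had 40230 reads in Ptdss1 knockdown replicate 1, where it ranked 42 among all genes, and 2356 to 5489 reads in the others, where its rank was 333 at best. The log2 fold change against control was -0.25 (SE 0.75) in Mertk KO and 0.57 (SE 0.80) in Ptdss1 knockdown, and the latter turned to -0.75 (SE 0.44) without that library. Another gene model on the same strand, Gm20547, overlaps Cfb and had 34 reads in Mertk KO replicate 1 and 0 in the other 9 libraries. How shared reads were divided between them was not tested, so the Cfb level is uncertain. C3 and Cfb correlated with r = 0.819 over 10 libraries and r = 0.361 without Ptdss1 knockdown replicate 1.

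Markers of other cells were set beside the high C3 and Cfb library. Fibroblasts and epithelial cells are further sources of C3 and factor B. In Ptdss1 knockdown replicate 1, the library that missed the most genes, the 6 fibroblast markers summed to 0.0853 RPM, and Col1a1 had 0 reads. The sum was 1.23 to 3.59 in control, 0.0972 to 41.9 in Mertk KO and 1.01 and 19.0 in the other 2 knockdown libraries. The 6 epithelial or tumour cell markers summed to 0.213 RPM there, with Krt8 and Epcam at 0 reads, against 21.3 to 31.9 in control, 64.1 to 159 in Mertk KO, and 43.3 and 58.9 in the other 2 knockdown libraries; Epcam had 0 reads in 8 of the 10 libraries. The epithelial sum was wholly higher in Mertk KO than in control, a separation that came from Cdh1. Its log2 levels were 9.76 to 10.55 in Mertk KO and 8.29 to 8.75 in control. Krt8 and Krt18 overlapped between these groups, with 1 and 0 reads in Mertk KO replicate 3. The neutrophil sum was highest in Ptdss1 knockdown replicate 1, at 274 RPM against 28.9 to 98.8 in the other libraries. It came from Csf3r with 6413 reads, while S100a8 had 0 reads in that library. S100a9 and Ly6g had 0 reads in all 10 libraries. The part of any of these cell types in the C3 and Cfb levels was not tested.

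Cfp (chromosome X, 20925454 to 20931555) had log2 levels of 11.11, 12.30 and 10.85 in control, 11.32, 10.33, 13.14 and 11.99 in Mertk KO, and 13.29, 11.95 and 11.65 in Ptdss1 knockdown. Mertk KO held the lowest library and the second highest, and the groups overlapped. The log2 fold change was 0.27 (SE 0.60) in Mertk KO and 0.87 (SE 0.64) in Ptdss1 knockdown against control, with a 95% interval of -0.48 to 2.22 for the latter. Without Ptdss1 knockdown replicate 1 it was 0.38 (SE 0.65). Without Mertk KO replicate 3 the Mertk KO value turned to -0.21, and without control replicate 3 to -0.01.

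The 2 libraries with the most Cfp, Ptdss1 knockdown replicate 1 and Mertk KO replicate 3, also had the highest sums of the 6 monocyte markers, 1306 and 2028 RPM against 34.6 to 684 in the other 8. The next libraries did not follow that order: control replicate 2, the third by Cfp, had a monocyte sum of 102 RPM, Mertk KO replicate 4, the fourth, had the lowest sum of all, and Mertk KO replicate 1 had 479 RPM with Cfp at 11.32. Different genes made up the sums. Mertk KO replicate 3 had 27934 reads of Chil3, 9952 of Ccr2 and 557 of Ly6c2, whereas Ptdss1 knockdown replicate 1 had 9 of Chil3, 28817 of Ccr2 and 5 of Ly6c2. Over the groups the monocyte sum was 50.6 to 374 in control, 34.6 to 2028 in Mertk KO and 270.4 to 1306 in Ptdss1 knockdown, and 0 of the 6 markers passed the adjusted threshold in any comparison. The part of monocytes in the Cfp level was not tested. Dendritic cell markers summed to 7.59 to 12.5 RPM in control, 0 to 509 in Mertk KO and 0.0853 to 142 in Ptdss1 knockdown, and the highest sum was again in Mertk KO replicate 3, from Cd209a with 9573 reads. T cell markers summed to at most 46.8 RPM in any library. The sums in the same group order were 93.4 to 205, 14.5 to 50.8 and 61.2 to 140.0 RPM for NK cells, 0 to 2.06, 0 to 5.30 and 0.0427 to 42.4 for B cells, and 39.2 to 64.1, 31.0 to 79.5 and 28.1 to 95.1 for endothelial cells. Of all the lists, 0 tested markers passed the adjusted threshold in any comparison.

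**Figure D3:**
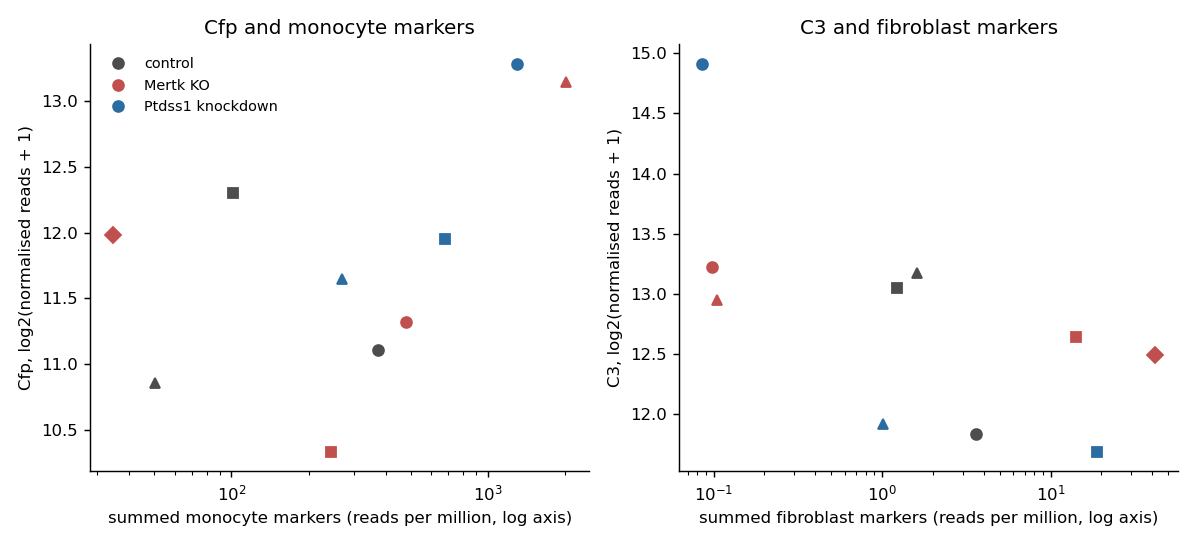
Left: Cfp level (log2(normalised reads + 1)) against the summed monocyte markers in RPM on a log axis. Right: C3 level against the summed fibroblast markers on a log axis. Each point is a library, shaped by replicate as in the plot of levels; the 2 libraries highest in Cfp stand at 1306 and 2028, and the library highest in C3 has a fibroblast sum of 0.0853.

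On the deposited log2 scale, C5ar1 was the only gene of the 8 whose groups did not overlap in a comparison, and it did not pass the test across all genes. C5ar1 (chromosome 7, 16246743 to 16259540) encodes the receptor for C5a. Its log2 levels were 11.76, 11.59 and 10.84 in control, 11.44, 11.88, 13.18 and 13.05 in Mertk KO, and 12.03, 11.94 and 12.91 in Ptdss1 knockdown. All 3 Ptdss1 knockdown libraries and 3 of the 4 Mertk KO libraries lay above the highest control library. Of all tested genes, 3.32% were wholly higher in Ptdss1 knockdown than in control. Per length, the mean was 68.1 ± 24.0 RPKM (SD, n = 3) in control, 149 ± 78.0 (SD, n = 4) in Mertk KO and 125 ± 58.5 (SD, n = 3) in Ptdss1 knockdown. By RPKM the knockdown and control groups overlapped, with Ptdss1 knockdown replicate 1 at 80.8 and control replicate 1 at 84.6. The log2 fold change was 0.99 (SE 0.49, 95% interval -0.03 to 2.02) in Mertk KO against control (limma adjusted p = 1.00). It was 0.90 (SE 0.52, 95% interval -0.20 to 2.00) in Ptdss1 knockdown against control (limma adjusted p = 0.841). Without Ptdss1 knockdown replicate 1, the knockdown mean was 12.43 on the log2 scale, against 11.39 in control. The 2 contrasts share the control libraries, so they are not separate evidence. Mertk KO and Ptdss1 knockdown differed by 0.09 (SE 0.49, 95% interval -0.93 to 1.12). Beside the Mertk KO values, the epithelial or tumour cell marker sum was wholly higher and the NK cell sum wholly lower than in control. Of these markers, Cdh1, Klrk1 and Nkg7 were separated between these groups, while Krt8, Krt18, Gzma and Klrb1c overlapped. The part of these cell types in the C5ar1 level was not tested.

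C3ar1 (chromosome 6, 122847138 to 122856161), the C3a receptor, measured 12.33, 13.64 and 12.13 in control, 12.21, 12.70, 13.71 and 13.40 in Mertk KO, and 13.28, 12.29 and 13.12 in Ptdss1 knockdown. The groups overlapped almost fully, and control replicate 2 was the second highest library. The log2 fold change was 0.30 (SE 0.48) in Mertk KO, 0.19 (SE 0.51) in Ptdss1 knockdown against control, and 0.11 (SE 0.48) between the 2. Without control replicate 2 the first became 0.77 and the second 0.66. The receptors correlated with each other at r = 0.678, and C3ar1 correlated with Cfp at r = 0.709.

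Genes whose levels followed each of these 5 most closely were named by the same measure over the 10 libraries. For C3ar1 they were Chmp1a (r = 0.961), Glmp (0.936) and Yipf3 (0.927), and for C5ar1 Fkbp4 (0.933), Ergic3 (0.899) and Cdc42 (0.899). For Cfp they were Wdr18 (0.940), Cnot8 (0.929) and Slc25a1 (0.928). C3 was followed by Slc16a3 (0.959), a lactate transporter, Mmp14 (0.954), a membrane metalloproteinase, and Traf6 (0.947), a signalling adaptor. Cfb was followed by Rasa3 (0.992), Tap1 (0.975), a peptide transporter of antigen presentation, and Smarca4 (0.975). Without Ptdss1 knockdown replicate 1, the Cfb values fell to 0.943, 0.823 and 0.849, and the C3 values to 0.920, 0.876 and 0.848.

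In all, 0 of the 8 genes passed an adjusted p of 0.05 in any comparison. The background was 0.0173% of tested genes in Mertk KO against control (2 genes), 0% in Ptdss1 knockdown against control and 0% between the 2. At an unadjusted p below 0.05 the count was also 0 of 8 in each, against 2.06%, 2.9% and 3.73% of all tested genes. On the deposited log2 scale, groups did not overlap for 0, 1 (C5ar1) and 0 of the 8, against 5.62%, 6.92% and 5.23% of all genes. By direction, these were 3%, 3.32% and 2.91% of genes with the first group higher and 2.62%, 3.6% and 2.32% with it lower. The median log2 fold change of the 8 was 0.06, 0.17 and 0.05, beside 0.02, -0.05 and 0.11 for all tested genes.

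**Figure D4:**
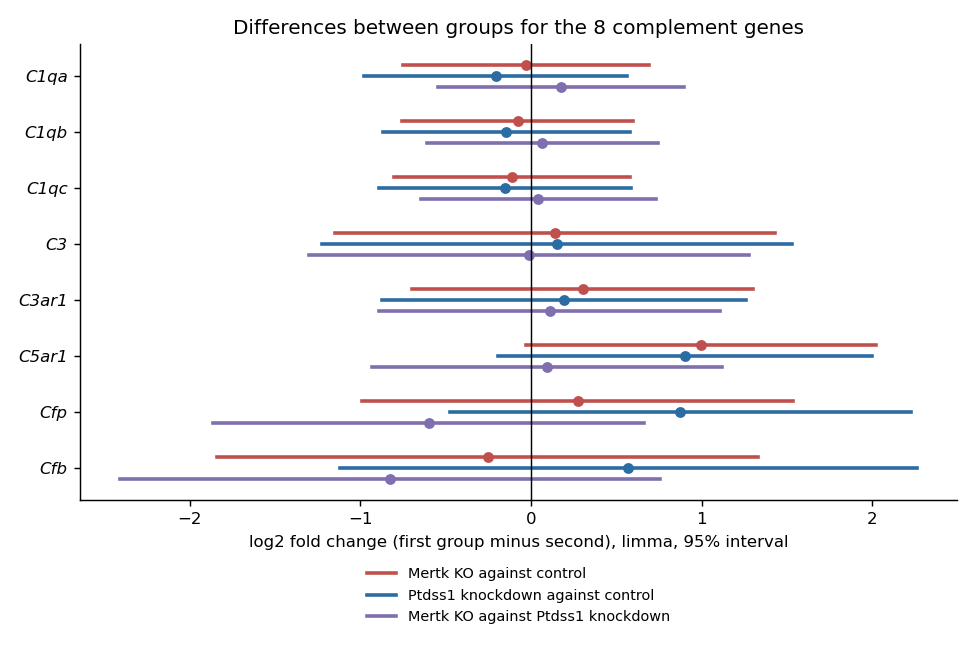
Log2 fold change (horizontal axis, first group minus second) of each of the 8 genes in the 3 comparisons, with 95% intervals from limma. All 24 intervals include 0; those of the C1q chains are the narrowest, and the C5ar1 interval for Mertk KO against control begins at -0.03.

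The rest of the complement system was read from a list of 47 further genes, of which 46 were analysed here. Of these, 13 had 0 reads in all 10 libraries: the lectin pathway genes Mbl1, Mbl2, Fcnb, Colec10 and Masp2, the protease C1s2, the terminal components C7, C8a, C8b and C9, the regulators Cfi and C4bp, and Vsig4, a macrophage receptor for C3 fragments. Only 24 passed the filter for testing. In each comparison 0 of the 24 passed the adjusted threshold. At an unadjusted p below 0.05, 2 were higher and 0 lower in Mertk KO against control (C1ra and Scarf1; 2.06% of all tested genes passed in either direction), 0 in Ptdss1 knockdown against control (2.9% of all), and 3 higher and 0 lower in Mertk KO against Ptdss1 knockdown (C1s1, Cd59a and Cd93; 3.73% of all). The median log2 fold change of the 24 was 0.56, 0.60 and 0.06 in these comparisons, beside 0.02, -0.05 and 0.11 for all tested genes; since the filter decides which of the 46 enter, it is a description only.

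In the initiation group, the C1 proteases were low beside C1q. C1ra, the protease C1r, averaged 16.6 RPKM and C1rl, a related protease, 7.91. C1ra measured 8.26, 7.34 and 9.36 in control, 9.77, 9.14, 10.80 and 10.08 in Mertk KO, and 10.79, 9.25 and 8.87 in Ptdss1 knockdown. Its log2 fold change in Mertk KO against control was 1.63 (SE 0.69, limma adjusted p = 1.00), and the groups overlapped. C1s1, the partner protease C1s, was listed at 0 in 4 libraries, and at 6.59 to 6.94 in 3 of the 4 Mertk KO libraries. It differed by 4.37 (SE 2.01) between Mertk KO and Ptdss1 knockdown (limma adjusted p = 0.805). C1r and C1s have near-identical copies in the mouse genome, so these counts are uncertain to that extent.

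C4b, the thioester component of the classical pathway, averaged 18.5 RPKM and lay between 9.33 and 11.28 on the log2 scale, with a log2 fold change of -0.31 (SE 0.53) in Mertk KO and -0.66 (SE 0.56) in Ptdss1 knockdown against control. C4b also has a near-identical copy, C4a, which was not analysed here. C2, the protease that joins C4, averaged 0.886 RPKM and had 0 reads in 3 libraries. Among terminal components, C6 averaged 14.9 RPKM, and its lowest (5.87) and highest (10.95) log2 levels both came from Ptdss1 knockdown libraries; C8g averaged 1.13.

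Clusterin (Clu), a soluble regulator, averaged 0.895 RPKM and had 0 reads in 4 libraries. Of the membrane regulators, Cr1l (Crry), which limits C3 activation on rodent cells, averaged 31.3 RPKM and differed from control by -0.01 (SE 0.52) in Mertk KO and 0.64 (SE 0.55) in Ptdss1 knockdown. Cd59a, the inhibitor of the membrane attack complex, averaged 2.14 RPKM; it was 4.21 higher on the log2 scale in Mertk KO than in Ptdss1 knockdown (SE 1.98, limma adjusted p = 0.805), with 0 reads in 2 libraries. Without Ptdss1 knockdown replicate 1, which had 0 reads, the difference of the means was 3.31.

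The integrin receptors for C3 fragments were abundant. Itgb2, the shared beta chain, averaged 166 RPKM and Itgax, the alpha chain of complement receptor 4, 83.3. Itgam, the alpha chain of complement receptor 3, measured 11.10, 11.10 and 11.16 in control, 12.16, 11.56, 12.17 and 10.95 in Mertk KO, and 11.88, 11.72 and 11.47 in Ptdss1 knockdown. Its knockdown libraries all lay above control, with a log2 fold change of 0.57 (SE 0.45) that did not pass the test (limma adjusted p = 0.841). In Ptdss1 knockdown against control, 3.32% of all tested genes were wholly higher.

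Proteins reported to bind C1q were expressed too. Calreticulin (Calr) averaged 389 RPKM and C1qbp 68.2. On the log2 scale C1qbp measured 10.47, 11.01 and 10.29 in control, against 9.28, 10.11, 9.92 and 9.83 for Mertk KO, which lay wholly lower. Its log2 fold change was -0.81 (SE 0.48, limma adjusted p = 1.00), and 2.62% of all tested genes were wholly lower in this comparison. By RPKM these groups overlapped, with Mertk KO replicate 2 at 60.09 and control replicate 3 at 59.95. Lrp1, an uptake receptor that pairs with calreticulin, measured 10.81, 10.85 and 10.94 in control, against 12.13, 11.48, 12.23 and 12.06 in Mertk KO, with a log2 fold change of 1.11 (SE 0.54, limma adjusted p = 1.00). Scarf1, a scavenger receptor for C1q-coated dying cells, measured 4.24, 0 and 6.41 in control libraries and 8.06, 6.57, 8.58 and 6.59 in Mertk KO. Its log2 fold change was 3.90 (SE 1.72, limma adjusted p = 1.00). The 0 came from control replicate 2, which missed 13.1% of the generally detected genes. In Ptdss1 knockdown, Lrp1 measured 13.58, 10.82 and 11.34 and Scarf1 9.22, 7.55 and 5.26, and both overlapped control. Their log2 fold changes against control were 1.04 (SE 0.58) and 3.79 (SE 1.84). Mertk KO and Ptdss1 knockdown differed by only 0.06 (SE 0.54) for Lrp1 and 0.11 (SE 1.72) for Scarf1. Cd93 was wholly higher in Mertk KO, at 10.45 to 10.64, than in Ptdss1 knockdown, at 5.12, 9.96 and 9.41. In this comparison 2.91% of all tested genes were wholly higher. The Cd93 difference was 2.40 (SE 0.96, limma adjusted p = 0.805). It rested largely on Ptdss1 knockdown replicate 1, without which the difference of the means was 0.88.

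**Figure D5:**
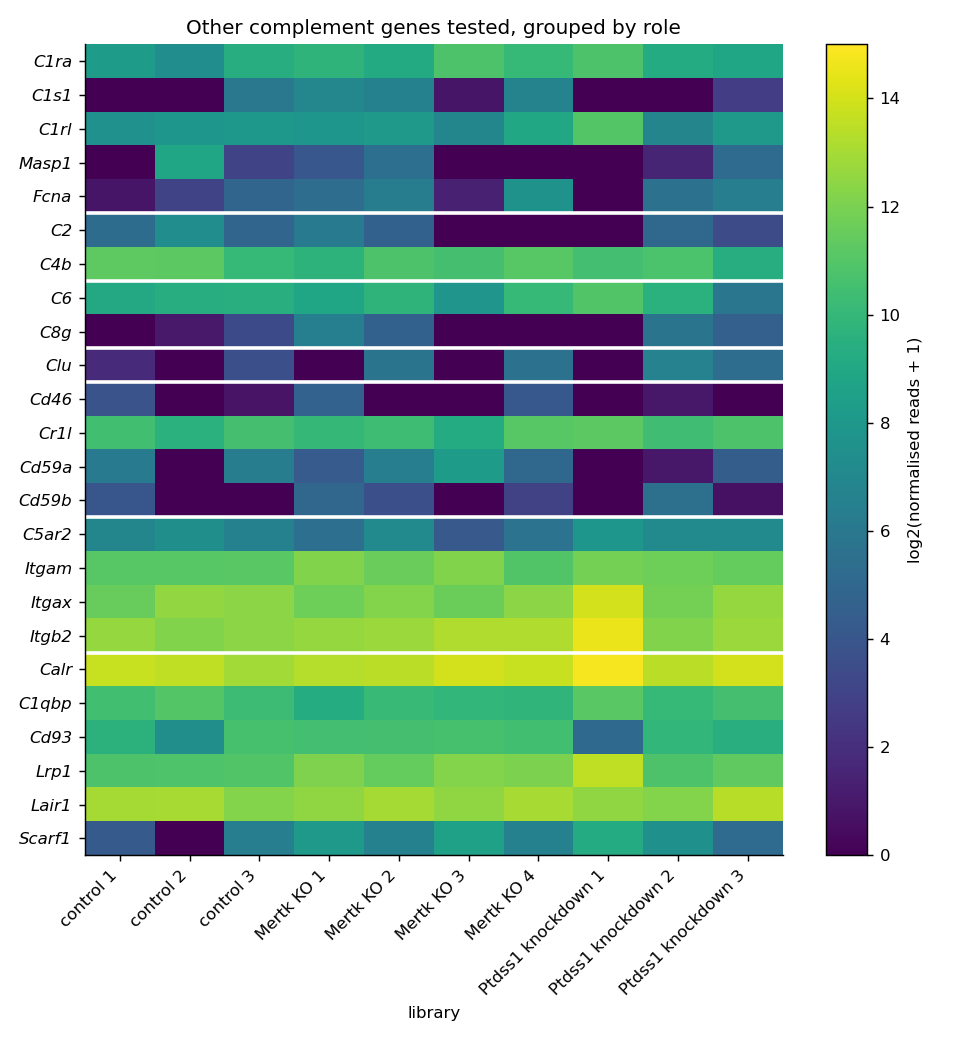
Heat map of log2(normalised reads + 1) for the 24 other complement genes that passed the filter, grouped by role (white lines, from initiation at the top to C1q binding proteins at the bottom), 1 column per library. Calr, Lair1 and the integrins are high in every column, and C1s1 and C2 drop to 0 in several.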

How the data were processed

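RNA was sequenced from 10 libraries of sorted tumour-associated macrophages. Per the labels' protocols, cDNA was made with a SMART-Seq v4 kit and 16 PCR cycles and sequenced as single reads of 75 cycles; the libraries carry no molecular identifiers or strand. The submitters' processing notes name STAR, RSEM and mm10, without versions. The authors deposited 1 table per library, with values that behave as log2(normalised reads + 1): undoing the log gave whole reads, within 0.01, for 100% of values in every library, and these recovered reads give the depths. All 21938 gene IDs matched the GENCODE annotation of GRCm38, the source of the coordinates and transcript lengths.

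Differences were tested with limma 3.58.1 (R 4.3.3; limma-trend, robust) on the deposited log2 values, on all 11564 genes with at least 10 reads in at least 3 libraries, all 10 libraries in 1 fit with no covariate. Tests were two-sided with Benjamini-Hochberg adjustment over all genes and a threshold of 0.05. Fold changes are differences of mean log2(value + 1), and for low genes their size is uncertain. The added 1 shrinks them, while single libraries at 0 reads can widen them. The procedure was also run on simulated reads. These had the same extra variation for every gene and no library that missed genes as Ptdss1 knockdown replicate 1 did. That run therefore does not show how the procedure performs on these libraries. RPKM use the longest protein-coding transcript and the total of recovered reads. Intervals are at 95%.

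The 8 genes, the list of other complement genes and the marker lists were chosen with earlier results of these data known. A further gene planned for that list is not reported here. Named beyond the 8 were the 2 highest per length in each role of the list, those at an unadjusted p below 0.05, and, for likeness, the genes of highest Pearson's r. Itgam, Lrp1 and the marker genes named singly were chosen after their values were seen. The alternatives were other size factors, filters, pseudocount of 8, no robust moderation, limma-voom fitted to recovered reads, array weights, only the compared groups, thinning to 10292592 reads, and leaving out libraries. The SDs, and the C1s1, Cd59a and Cd93 differences, without Ptdss1 knockdown replicate 1 were added after seeing the data.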

Additional observations from a re-analysis of the deposited data

How the results depend on the processing

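Under all 23 alternatives, 0 of the 8 genes passed the adjusted threshold in each comparison. Over all genes, calls ran from 0 to 25 in Mertk KO against control, 0 to 2 in Ptdss1 knockdown against control and 0 to 35 between the 2, the highest with array weights, against 2, 0 and 0 as reported. C5ar1 stayed positive against control throughout, at 0.48 to 1.31 in Mertk KO and 0.59 to 1.21 in Ptdss1 knockdown, with lowest adjusted p of 0.844 and 0.454. Of all fold changes of the 8 genes and counts recomputed, 555 kept their direction and side of the threshold, and 66 fold changes, none of them called, changed sign; the cause was not tested.

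In Mertk KO against control, C1qa was 0.011 with upper-quartile factors and 0.018 scaled by totals, and Cfp -0.11 with array weights. In Ptdss1 knockdown against control, array weights gave C1qa 0.15, C1qb 0.19, C1qc 0.083, C3 -0.49 and Cfb -0.54, and upper-quartile factors C3 -0.067 and C3ar1 -0.026. In Mertk KO against Ptdss1 knockdown, array weights gave C1qa -0.35, C1qb -0.40, C1qc -0.35, C3 0.96, C3ar1 -0.24, C5ar1 -0.73 and Cfb 0.37; C3 was 0.25 with upper-quartile factors and 0.081 scaled by totals. Upper-quartile factors moved the median of all genes from -0.05 to -0.23 in Ptdss1 knockdown against control and from 0.11 to 0.33 between the 2.

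Leaving out 1 library, or control replicate 2 and Ptdss1 knockdown replicate 1 together, gave these ranges where a sign changed. In Mertk KO against control, the ranges were C1qa -0.22 to 0.10, C1qb -0.23 to 0.0094, C1qc -0.30 to 0.013, C3 -0.29 to 0.38, Cfp -0.21 to 0.73 and Cfb -0.56 to 0.050. In Ptdss1 knockdown against control, the ranges were C1qa -0.41 to 0.16, C1qb -0.36 to 0.17, C1qc -0.31 to 0.021, C3 -0.88 to 0.73, C3ar1 -0.093 to 0.66 and Cfb -0.75 to 1.24. In Mertk KO against Ptdss1 knockdown, the ranges were C1qa -0.056 to 0.38, C1qb -0.20 to 0.28, C1qc -0.15 to 0.20, C3 -0.59 to 1.02, C3ar1 -0.19 to 0.38, C5ar1 -0.17 to 0.41 and Cfb -1.49 to 0.50. No paired analysis was possible because the labels give no replicate numbers shared between groups.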

Other observations

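The balance of the 2 fragment receptors was not part of a comparison above. On the log2 scale, not per length, C3ar1 exceeded C5ar1 in 10 of 10 libraries. Per transcript length, which takes account of the longer C3ar1 transcript, it did so in 5 of 10. On the log2 scale the difference was 0.58, 2.06 and 1.29 in control, 0.76, 0.82, 0.53 and 0.35 in Mertk KO, and 1.25, 0.35 and 0.21 in Ptdss1 knockdown. The groups overlapped, and no test was run on this difference.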
